A study of Mus musculus with 4 samples.

Results

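The comparison described here set tissue at a PMB-coated scaffold against tissue at a non-coated scaffold. Its members were the 2 arrays on which the PMB-coated sample was hybridized, out of 4 arrays in all, and they were chosen by their titles. PMB is a copolymer of MPC (2-methacryloyloxyethyl phosphorylcholine), which gives the arrays their titles, with n-butyl methacrylate. Its phospholipid-like head groups make it the bio-inert coating of the study. The PMB-coated and the non-coated porous scaffold each lay for 7 days under the dorsal skin of male C57BL/6 mice aged 8 weeks, with no other treatment, and the study performed the biological experiment once. The study's methods describe the scaffold as polyethylene, whereas the deposited title names polystyrene. The tissue was cut by laser at and close around the scaffold, so that RNA of infiltrating, connective tissue, fat, muscle and vessel cells was measured together. On both arrays 825 ng of labelled amplified RNA from each scaffold was hybridized. The PMB-coated sample was in Cy5 on replicate 1 and in Cy3 on replicate 2, and these were a dye swap of the same extracts. They count as 1 biological replicate, and no p-value is given.

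An implanted porous material is first covered by protein and then filled by neutrophils, macrophages, fibroblasts and new vessels, and a capsule forms around it. Phosphorylcholine polymers are known for low protein and cell adhesion. Under the dorsal skin of the mouse lie a fat layer and a thin sheet of striated muscle, the panniculus carnosus. Injured muscle regenerates through myoblasts that fuse to new fibres, which make embryonic myosin and other developmental sarcomere proteins before the adult fast or slow forms. Adult slow fibres hold the myosin heavy chain Myh7, whereas fast fibres hold Myh1, Myh2 and Myh4.

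Each value is the log2 of the PMB-coated over the non-coated signal, with the sign of replicate 2 turned, and ± is the SD of the 2 arrays, which covers technical error and says nothing about the spread between mice. Of 43377 probes, 26228 had a value on replicate 1, 22671 on replicate 2 and 22619 on both. These 22619 probes gave 11942 genes, of which 7360 rested on 1 probe. As deposited, the 2 columns correlated at -0.67 across probes, which are not independent replicates, as a dye swap that had not been turned would give. Over the shared probes the SD was 0.396 on replicate 1 and 0.486 on replicate 2. A gene was counted as higher or lower where both arrays had the same sign and their mean lay 1 or more from 0, that is, 2-fold or more. As the tissue was a mixture, fewer cells of a type and less RNA per cell cannot be told apart. With 1 extract per scaffold, the share of muscle, fat or other tissue cut by the laser cannot be told apart from the coating either. Markers of the implant bed were present, with values on both arrays for 23 of 26 listed pan-macrophage genes, 30 of 32 sarcomere genes and 21 of 27 adipocyte genes, against 6 of 25 epidermis genes.

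Replicate 2 stood apart in how its values followed the position of a probe. When the probe numbers were arranged in 532 lines of 85, the median on replicate 2 was 0.30 over the first 10 places of a line and -0.22 over the last 10, whereas on replicate 1 the medians were 0.05 and 0.03. Along the lines both arrays moved the same way. The median over the first 10% of the lines was -0.08 on replicate 1 and -0.13 on replicate 2, and over the last 10% it was 0.13 and 0.25. A smooth surface over position held 4.12% of the variance on replicate 1 and 17.5% on replicate 2, against 0.278% and 1.65% on the collagen arrays. With each array adjusted for its surface, a choice made after seeing the data, 56 of the 81 higher genes and 168 of the 181 lower genes kept their call. Where a gene of a list described below lost its call, the adjusted value stands beside it. The cause of the trend was not tested.

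**Figure D1:**
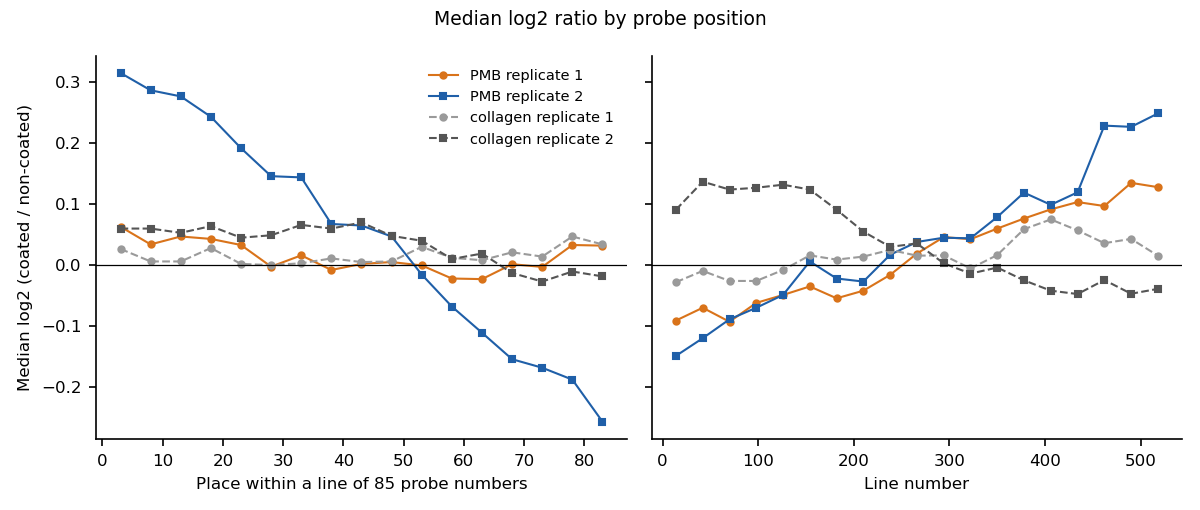
Median log2 ratio of coated over non-coated tissue in bins of 5 places within a line of 85 probe numbers (left) and in bins of 28 lines (right), for both PMB arrays and both collagen arrays. PMB replicate 2 falls along the line, and both PMB arrays climb with line number, to 0.13 and 0.25 over the last 10% of the lines.

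Of the 11942 genes, 81 (0.678%) were higher and 181 (1.52%) lower at the PMB-coated scaffold, by 2-fold or more. The median over all genes was 0.02, and from the 5th to the 95th percentile the values ran from -0.57 to 0.56. Below -2 were 35 genes, and above 2 were 4. Both arrays reached 2-fold for 54 of the higher and 153 of the lower genes. Over the probes with a value on both arrays, replicate 2 alone gave 166 higher and 246 lower genes, and replicate 1 alone gave 82 and 202. The median SD between arrays was 0.14 among the higher and 0.14 among the lower genes. Every gene with several probes, 8 among the higher and 40 among the lower, had all of its probe means on the same side of 0. Just inside the limit were Pcolce2 at 1.00 and Jph2, at -1.20 on replicate 1 and -0.80 on replicate 2, and just outside were Cd209b at 0.9955 and Igfbp3 at -0.9960. Among probes without a gene name, 14 of 3439 were higher and 40 were lower.

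**Figure D2:**
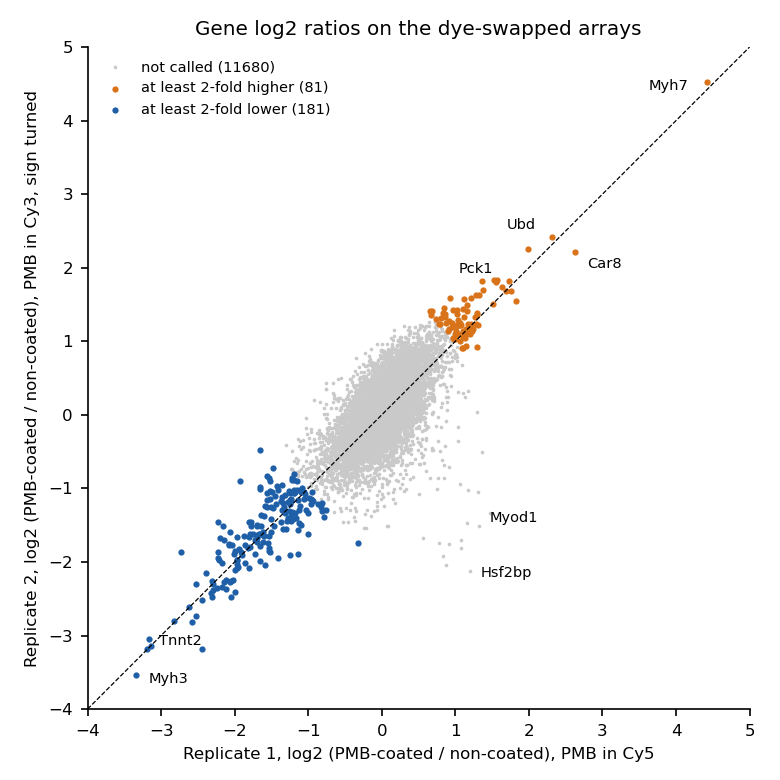
Each point is 1 of 11942 genes, with its log2 ratio of PMB-coated over non-coated tissue on replicate 1 (horizontal axis) and on replicate 2 (vertical axis). The dashed line marks equal values, the 81 higher and 181 lower genes are coloured, Myh7 lies at 4.42 and 4.53, and Hsf2bp and Myod1 lie on opposite sides of 0 on the 2 arrays.

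The highest gene was Myh7, the myosin heavy chain of slow skeletal fibres and of the heart ventricle. Its log2 ratio was 4.42 on replicate 1 and 4.53 on replicate 2, a mean of 4.48 ± 0.075 or 22.3-fold, and the next highest gene was at 2.42. A second Myh7 probe had a value on replicate 1 only, at 4.65. Neither probe had a value on the collagen arrays. Myl2, the regulatory light chain that pairs with Myh7, was read by 1 probe on replicate 1 only, at 4.13. The slow and cardiac troponin C, Tnnc1, was higher as well, at 1.15 and 1.09 with PMB, and stood at 0.23 with collagen. The slow troponin T, Tnnt1, was at 0.80 and 0.67 with PMB and at -1.01 with collagen.

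Other slow-fibre genes did not share this direction. In a list of 12 slow-fibre genes drawn up after the values were seen, 9 had a value, of which 2 were higher and 3 lower, and whose median was -0.10 on replicate 1 and -0.0050 on replicate 2. The slow troponin I, Tnni1, was at -0.11 and 0.05, the calcium pump Atp2a2 at -0.0010 and -0.0050, and Tpm3, a slow tropomyosin, at -0.10 and -0.26. Lower were the calcium buffer Casq2 at -1.80 and -2.08, the Z-disc protein Myoz2 at -1.24 and -1.44, and the light chain Myl3 at -1.79 and -1.63. A second probe of Myl3 read 1.14 on replicate 1 only, so the probes of this gene disagreed in sign. In a list of 10 heart genes, also drawn up afterwards, 3 had values on both arrays and none reached 2-fold. The cardiac myosin-binding protein Mybpc3 was at 0.64 and 1.13 and the cardiac troponin I, Tnni3, at 0.62 and 0.86. Whether the Myh7 signal came from skeletal fibres or from another cell type was not tested. Myosin heavy chains share long stretches of sequence, and whether the probes distinguish them was not examined.

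The 5′ ends of 4 of these muscle genes are shown because they carry the same short motif while the genes differed in direction, Myh7 and Tnnc1 being higher and Tnnt2 and Ankrd1 lower. The motif is CATTCC, a core of the M-CAT element CATTCCT that TEAD factors bind, searched on both strands. The last T of the element was not required. In the windows shown it is present in Tnnt2 and at the first place in Ankrd1, but not in Myh7 or Tnnc1. Each sequence spans a RefSeq start site on GRCm38.p6, most of it upstream, with the motif or its reverse complement in capitals. They lie at chr14:54994577-54994876 (minus strand) for Myh7, chr14:31208062-31208361 (plus) for Tnnc1, chr1:135836084-135836383 (plus) for Tnnt2 and chr19:36119795-36120094 (minus) for Ankrd1.
Myh7: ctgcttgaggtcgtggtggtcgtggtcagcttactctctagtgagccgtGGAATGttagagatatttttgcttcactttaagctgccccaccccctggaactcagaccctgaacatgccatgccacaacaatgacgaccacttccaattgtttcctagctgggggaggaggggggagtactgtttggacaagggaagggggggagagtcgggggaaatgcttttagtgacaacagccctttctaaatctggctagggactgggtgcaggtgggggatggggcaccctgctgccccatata
Tnnc1: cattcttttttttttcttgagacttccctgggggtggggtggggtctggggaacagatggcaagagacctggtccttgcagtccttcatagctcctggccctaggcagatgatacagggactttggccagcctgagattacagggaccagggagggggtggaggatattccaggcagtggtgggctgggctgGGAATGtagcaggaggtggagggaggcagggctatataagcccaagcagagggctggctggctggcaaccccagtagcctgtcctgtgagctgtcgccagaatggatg
Tnnt2: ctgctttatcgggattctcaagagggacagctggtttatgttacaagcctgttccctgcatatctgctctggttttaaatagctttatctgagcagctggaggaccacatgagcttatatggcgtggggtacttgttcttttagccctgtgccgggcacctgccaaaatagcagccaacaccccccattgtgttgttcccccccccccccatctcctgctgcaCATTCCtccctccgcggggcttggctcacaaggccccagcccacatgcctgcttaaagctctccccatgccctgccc
Ankrd1: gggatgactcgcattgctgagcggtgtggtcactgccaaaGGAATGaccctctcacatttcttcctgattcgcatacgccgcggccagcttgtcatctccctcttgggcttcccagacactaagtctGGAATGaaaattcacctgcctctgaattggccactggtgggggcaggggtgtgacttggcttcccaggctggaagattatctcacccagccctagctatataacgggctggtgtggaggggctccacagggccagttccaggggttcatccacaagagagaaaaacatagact
The motif was found once in the Myh7, Tnnc1 and Tnnt2 windows and at 2 places in that of Ankrd1. The other RefSeq start listed for Myh7 and for Tnnt2 held none. Windows of Myh3, Myl2, Tnnt1, Myh2 and Myh8 held none either, whereas those of Myh1 and Myh4 held 1 each. Of all 32851 windows of this kind, 14.7% held it, and of the windows of the measured genes 12.4% did. It was in 10 of 25 windows of the measured sarcomere genes, 3 of 17 of the measured embryonic muscle genes, 39 of 184 of the lower genes and 6 of 60 of the higher genes. E-boxes, CANNTG on both strands and known as sites of Myog and Myod1, were in 72.3% of all windows, 64.4% of those of the measured genes, 151 of 184 of the lower genes and 45 of 60 of the higher genes. The letters alone do not show a site that is used.

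Fast-fibre and general sarcomere genes were lower at the PMB-coated scaffold. How much muscle was cut with each scaffold is not given by the study, and its part in these values was not tested. Of 30 measured sarcomere genes, 24 were lower, against 1.52% of all genes, and 2, Myh7 and Tnnc1, were higher. The list median was -1.67, against 0.02 over all genes. The lowest was the fast light chain Mylpf, at -2.44 and -2.52. Then came Actn2, a Z-disc actinin, at -2.33 and -2.42, the light chain Myl1 at -2.29 and -2.38, and the fast myosin-binding protein Mybpc2 at -2.30 and -2.30. Mylpf was below Actn2 on each array, whereas the ranges of Actn2 and Myl1 and of Myl1 and Mybpc2 overlapped. All 15 members of a list of fast-fibre genes, drawn up after the values were seen, were lower, between -2.48 for Mylpf and -1.38 for the fast troponin C, Tnnc2.

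The fast myosins Myh1, Myh4 and Myh2 were at -2.21 ± 0.088, -1.66 ± 0.050 and -1.64 ± 0.027. The Myh2 mean hid a spread between its 3 probes, which read -2.42, -1.40 and -1.10. Giant and scaffold proteins were lower too, with titin (Ttn) at -2.10 ± 0.11, nebulin (Neb) at -1.76 ± 0.16, Xirp2 at -2.15 ± 0.15 and Myom2 at -1.69 ± 0.098. Another myosin-binding protein, Mybpc1, was at -1.61 ± 0.018. Thin-filament genes followed, with the skeletal actin Acta1 at -1.91 ± 0.23, the fast troponins Tnnt3 at -2.06 ± 0.085 and Tnni2 at -1.65 ± 0.19, and the tropomyosin Tpm1 at -1.72 ± 0.020. The 3 probes of Tpm1, a gene also used in smooth muscle, ran from -2.48 to -0.49. Z-disc genes Actn3, Myoz1, Myot, Ldb3 and Tcap were at -1.97, -1.73, -1.63, -1.27 and -1.26. The intermediate filament desmin (Des) was read by 10 probes, which lay between -1.72 and -1.38. Members that did not reach 2-fold in either direction were Tnnt1, Tnni1, Myom1 at -0.44 and Tpm2 at -0.96.

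Genes of muscle calcium handling and energy gave 15 lower and none higher of 24, against 1.52% lower of all genes, with a median of -1.61. The caveolin Cav3 was lowest, at -2.63 and -2.61, followed by the calcium store protein Casq1 at -2.39 ± 0.12, the calcium buffer Pvalb at -2.27 ± 0.30 and the triad protein Sypl2 at -2.09 ± 0.18. A second Sypl2 probe had a value on PMB replicate 1 only, at -0.001, so the probes of this gene disagreed. Creatine kinase Ckm was at -1.94 ± 0.11, its mitochondrial form Ckmt2 at -1.59 ± 0.074, the enolase Eno3 at -1.93 ± 0.10 and the deaminase Ampd1 at -1.81 ± 0.12. Casq2, Pygm, Trdn, Jph1, Pgam2 and Atp2a1 lay between -1.94 and -1.49. The calcium channel Cacna1s was at -1.07 and did not reach 2-fold once adjusted for probe position, at -0.92. Myoglobin (Mb), at -0.64, and the glucose transporter Slc2a4, at 0.19, were among the 9 that did not reach 2-fold.

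Among the 5 lowest genes, 4 belonged to the list of embryonic and regenerating muscle. Of 18 measured genes of this list, 13 were lower, against 1.52% of all genes, and 0 higher, and the median was -1.85. Myh3, the embryonic myosin heavy chain, was at -3.34 and -3.53 with PMB, a mean of -3.44 ± 0.13 or 10.8-fold lower, and at -1.18 with collagen. Tnnt2, a troponin T of heart and immature muscle, was at -3.20 and -3.18 with PMB and at -0.48 with collagen. Ankrd1, a stress-induced partner of titin, was at -3.16 and -3.05 with PMB and at 0.30 with collagen. Myh3 stood apart from these neighbours on both arrays. Igfbp2 was at -3.13 and -3.15, and its range overlapped that of Ankrd1, whereas Tnnt2 was slightly below both on each array. The atrial and embryonic light chain Myl4 was at -2.82 and -2.80, and Mybph at -2.53 and -2.73.

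The muscle acetylcholine receptor subunit Chrna1 was at -2.27 ± 0.17 and the cardiac actin Actc1, which immature muscle also makes, at -1.89 ± 0.032. Myogenin (Myog), the factor that drives myoblast differentiation, was read by 10 probes between -2.16 and -1.84, with a mean of -2.01 with PMB and -0.53 with collagen. Csrp3, the perinatal myosin Myh8 and the factor Myf6 were at -1.92, -1.82 and -1.63. The fusion protein Mymk was at -0.79 and -1.38, and the satellite cell cadherin Cdh15 at -1.65 and -0.47, the widest split between arrays in the list apart from Myod1. Myod1 was at 1.32 and -1.52 on the arrays, over 9 probes, and no direction can be given for it. Ankrd2, Sgca and Ncam1 were at -0.85, -0.54 and -0.35 and the Notch ligand Dll1 at 0.64.

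**Figure D3:**
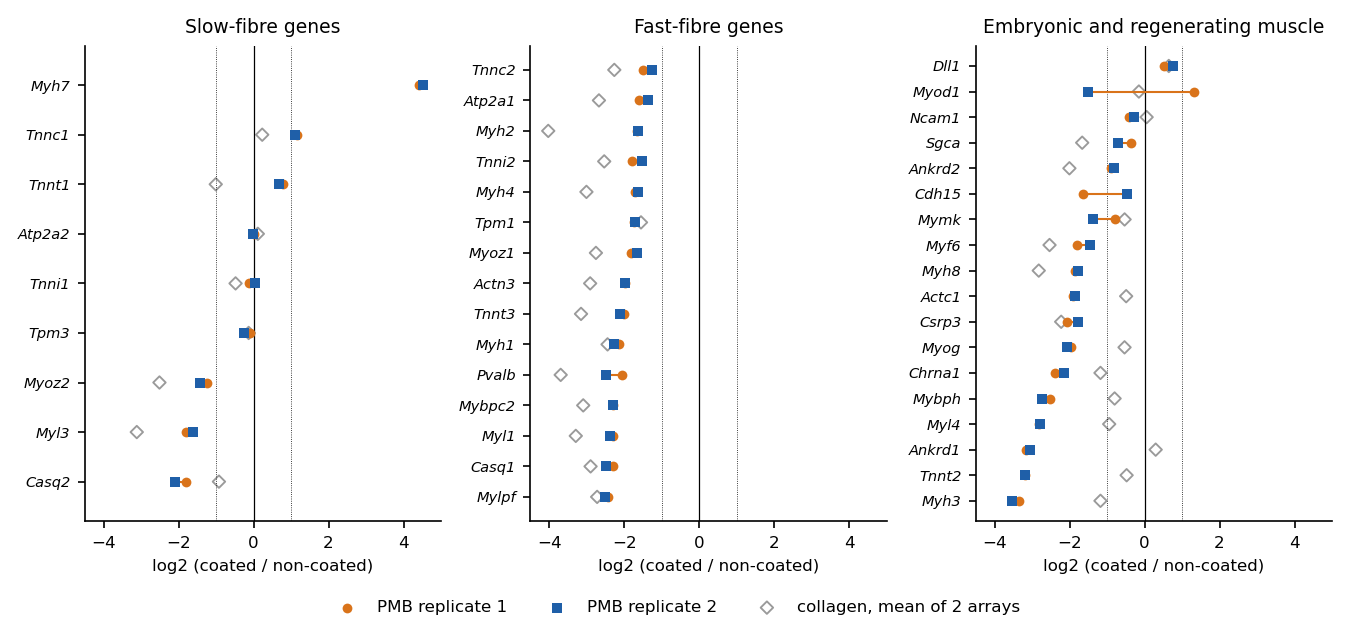
Log2 ratios of coated over non-coated tissue for the measured slow-fibre genes, fast-fibre genes and embryonic or regenerating muscle genes, with circles for PMB replicate 1, squares for PMB replicate 2 and open diamonds for the collagen mean (dotted lines, 2-fold). Myh7 is at 4.42 and 4.53, the 15 fast-fibre genes lie between -2.52 and -1.26 on the PMB arrays, and the lowest embryonic point is Myh3 at -3.53 on replicate 2.

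Both coatings were read against the same non-coated extract, so their values are not independent. The medians with PMB and with collagen were -1.67 and -2.63 for sarcomere genes, -1.61 and -2.58 for calcium and energy genes, and -1.85 and -0.80 for embryonic and regenerating muscle. Adult lists were thus nearer to 0 with PMB and the embryonic list was nearer to 0 with collagen. The difference between coatings rests on 1 extract each and was not tested.

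Among the 30 lowest genes, 17 were members of these 3 muscle lists. Among the others were the actin-associated Pdlim3 at -2.70 ± 0.17, the channel subunit Cacng1 at -2.41 ± 0.16, the kelch protein Klhl41 at -2.28 ± 0.030, the tropomodulin Tmod4 at -2.20 ± 0.30, the melusin gene Itgb1bp2 at -2.18 ± 0.097 and the atrophy ligase Trim63 at -2.13 ± 0.16. Sh3bgr was at -2.26 ± 0.11. The myosin-locus RNA Myhas was at -2.44 and -3.18, and the X-linked Xlr3c at -2.06 and -2.27. Nmrk2, a kinase of NAD synthesis in muscle, was at -2.73 and -1.86 with PMB. It had a value on collagen replicate 2 only, at -1.94. The ankyrin-repeat gene Asb12 at -2.08, Abra at -1.95, Iqsec3 at -1.82 and Arpp21 at -1.79 also lacked collagen replicate 1. On collagen replicate 2 they were at -2.29, -3.14, -1.38 and -1.37.

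**Figure D4:**
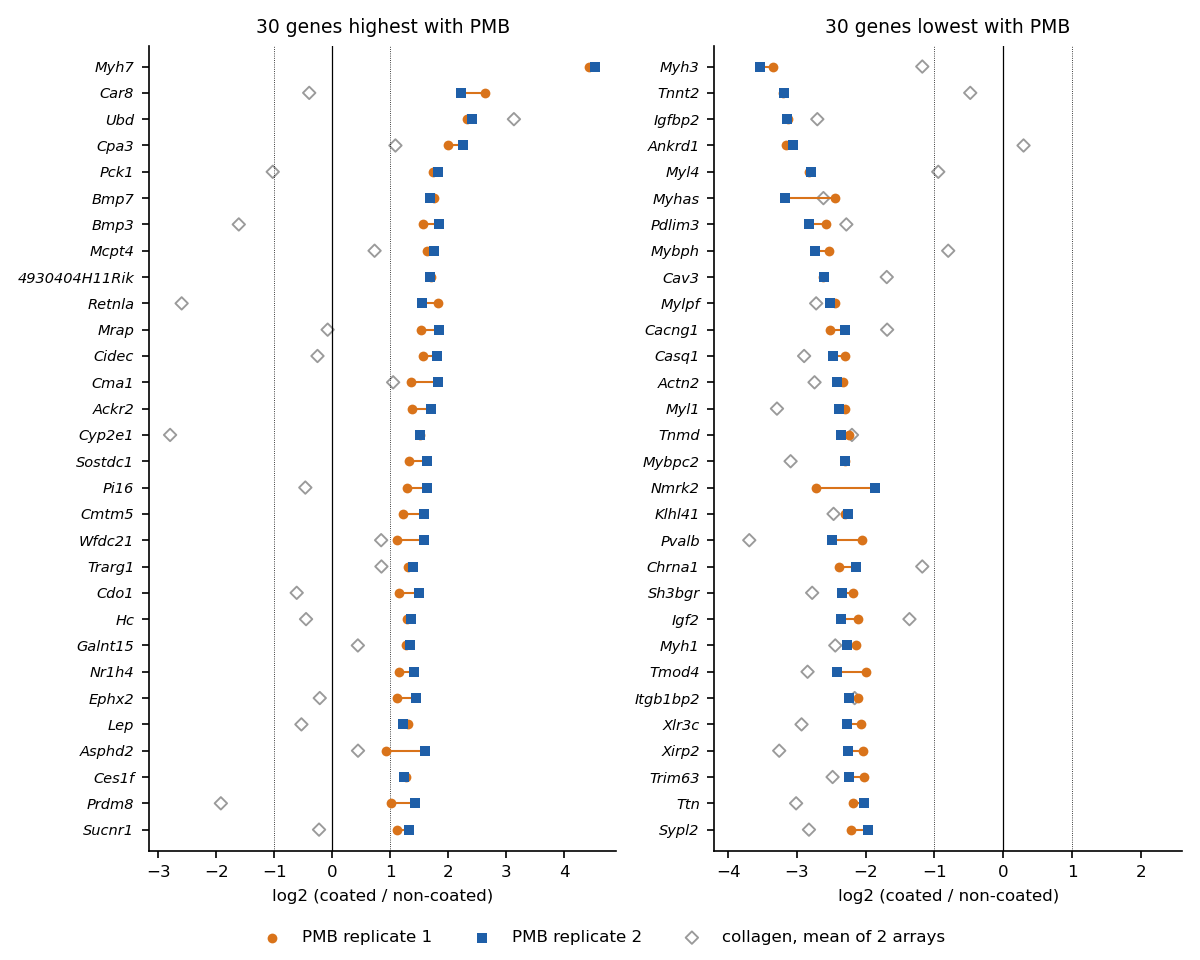
The 30 genes with the highest (left) and the lowest (right) mean log2 ratio of PMB-coated over non-coated tissue, with circles for PMB replicate 1, squares for PMB replicate 2 and open diamonds for the collagen mean where there was one. The right panel starts with Myh3 at -3.44 and holds 28 genes below 0 with collagen, and the left panel, led by Myh7, holds 14 such genes.

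Growth factor genes of the IGF axis were lower at the PMB-coated scaffold in 2 of 16 cases, against 1.52% of all genes. Igfbp2, which binds IGFs, was at -3.14 ± 0.011 with PMB and at -2.70 with collagen. Igf2, a fetal growth factor that regenerating muscle also makes, was read by 11 probes between -3.17 and -1.90, with a mean of -2.24 with PMB and -1.36 with collagen. Igfbp5 was at 0.84, Igf1 at -0.53 and Igfbp3 at -0.9960 with PMB. Of 20 imprinted genes 3 were lower, Igf2 with H19, its neighbour in the same imprinted domain, at -1.47 and -1.51, and the deiodinase Dio3 at -0.97 and -1.14. Of 9 tendon genes 3 were lower, tenomodulin (Tnmd) at -2.24 and -2.36, the fibril collagen Col11a1 at -1.60 ± 0.15, and Thbs4 at -0.87 and -1.22. Thbs4 was at -0.91 after adjustment for position. The tendon median was -0.58 with PMB and -1.15 with collagen. With collagen, Tnmd was at -2.20, Thbs4 at -2.66 and Col11a1 at 0.02, and H19 and Dio3 were at -1.15 and 1.20. The tendon regulator Scx was at -0.27 and Mkx at 0.53.

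Genes of natural killer cells formed a further lower group. Of 12 measured NK and cytotoxic genes, 4 were lower, against 1.52% of all genes. None of the 12 was above 0, and the list median was -0.59 with PMB and 0.66 with collagen. The protease gene Gzma was at -1.41 and -1.94, the Ly49 receptor Klra8 at -1.38 and -1.45, Gzmc at -1.35 and -1.20 and the activating receptor Ncr1 at -1.53 and -0.86. Gzmb, at -0.21, Klrk1, at -0.23, and Nkg7, at -0.43, did not reach 2-fold. The Ly49 family, looked at after its values were seen, had 8 of 10 measured Klra genes lower, between -1.81 for Klra22 and -1.05 for Klra16, and these 8 were between -0.06 and 0.46 with collagen. Klra3 was at -0.74 and Klra2, which myeloid cells express, at 0.24. Several Klra genes neighbour each other on chromosome 6 and are close copies, so their probes may read the same transcripts and are not 8 separate observations. The T cell list had no member past 2-fold among 12, with a PMB median of -0.33 and a collagen median of 1.34. The PMB median was -0.46 on replicate 1 and -0.14 on replicate 2. Its receptor chain Cd3g was at -1.12 and -0.35 and Cd3d at -0.17 and 0.26.

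Fat cell genes were higher at the PMB-coated scaffold. The amount of fat cut with each scaffold is likewise not given, and its part was not tested. Of 21 measured adipocyte genes, 8 were higher, against 0.678% of all genes, and none was lower, and 19 were above 0. The list median was 0.86 with PMB and -0.67 with collagen. Pck1, which makes glycerol for triglyceride, was at 1.73 and 1.82 with PMB and at -1.03 with collagen. The melanocortin receptor accessory protein Mrap was at 1.53 and 1.83, and Cidec, which sits on lipid droplets, at 1.68 ± 0.17. Leptin (Lep) was read by 7 probes on both arrays, between 1.10 and 1.40. Adiponectin (Adipoq) was at 1.24 and 1.17, the droplet coat proteins Plin4 at 1.18 and 1.14 and Plin1 at 0.85 and 1.45, and the fatty acid carrier Fabp4 at 1.29 and 0.92. Fabp4 was at 0.94 after adjustment for position.

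The lipase Lpl, at -0.36, and the fatty acid transporter Cd36, at -0.33, both also made by muscle and macrophages, were the members below 0, and the adipogenic regulator Pparg was at 0.12 and Cebpa at 0.26. Of 14 fatty acid synthesis genes 2 were higher, against 0.678% of all genes. These were the desaturase Scd1 at 1.14 and 0.94 and Pnpla3 at 0.99 and 1.03, the second of which was at 0.72 after adjustment. The synthase Fasn was at 0.29, Acacb at 0.62, Acly at -0.33 and Acaca at -0.39. Outside the lists, the insulin-responsive trafficking gene Trarg1 was at 1.30 and 1.39, the cysteine dioxygenase Cdo1 at 1.33 ± 0.24, and the succinate receptor Sucnr1 at 1.12 and 1.33.

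Enzymes of foreign compound and retinoid metabolism gave 6 higher and none lower of 27, against 0.678% higher of all genes. The list median was 0.56 with PMB and -0.16 with collagen. The cytochrome Cyp2e1 was at 1.51 and 1.51 with PMB and at -2.79 with collagen. The epoxide hydrolase Ephx2 was at 1.11 and 1.44, and at 0.91 after adjustment for position. Carboxylesterases Ces1f, at 1.27 and 1.24, and Ces1d, at 1.20 and 1.10, are close copies in the same gene cluster. Ces1f had a value on collagen replicate 2 only, at -1.09. The steroid dehydrogenase Akr1c14 was at 1.21 and 1.23 and the retinoic acid hydroxylase Cyp26b1 at 1.02 and 1.22. Cyp4b1 at 0.98 and Aldh1a1 at 0.90 came next, and Cyp1b1 was lowest at -0.63. Fat cells also express several of these genes, among them Ces1d, Ephx2 and Cyp2e1, and in the same extracts the adipocyte list had its median of 0.86. Its part in these values was not tested.

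Mast cell proteases were higher, whereas other mast cell genes lay nearer to 0. Of 7 measured genes of a list of 18, 3 were higher, against 0.678% of all genes. The carboxypeptidase Cpa3 was at 1.99 and 2.25. The chymases Mcpt4, at 1.64 and 1.74, and Cma1, at 1.36 and 1.82, resemble each other in sequence. The receptor Kit was at 0.12 and 0.40, Hdc, which makes histamine, at 0.06 and 0.44 and Gata2 at 0.26 and 0.40. The prostaglandin D synthase Hpgds was at -0.91 and -1.01. With collagen the same proteases were at 1.09, 0.73 and 1.05.

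Genes induced by interferon-gamma gave 4 higher and none lower of 24, against 0.678% higher of all genes. Above 0 were 22, with a PMB median of 0.48 and a collagen median of 0.08. The ubiquitin-like modifier Ubd was at 2.32 and 2.42 with PMB and at 3.13 with collagen. The chemokine Cxcl9, which draws T cells, was at 1.14 and 1.17, and the guanylate-binding proteins Gbp4 and Gbp6, which are close copies, were at 1.15 ± 0.11 and 1.14 ± 0.11. Immunity-related GTPases followed, with Iigp1 at 0.98 and Igtp at 0.91. The chemokine Cxcl10, at 0.36 and -0.08, and the class II regulator Ciita, at 0.04, were close to 0. No gene of the type I interferon list of 33 reached 2-fold, with a PMB median of 0.22 and a collagen median of -0.71.

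Signalling genes among the highest included 2 of 39 measured TGF-beta and BMP genes, against 0.678% higher of all genes. Bmp7, a bone morphogenetic protein, was at 1.76 and 1.68 over 3 probes, and all 11 of its probes on replicate 1 lay between 1.55 and 2.33. No Bmp7 probe had values on both collagen arrays, and its single-array collagen values ran from -0.64 to 0.28. Bmp3, an inhibitory member, was at 1.57 and 1.84 with PMB and at -1.61 with collagen. Sostdc1, an antagonist of BMP and Wnt signals, was at 1.33 and 1.63. The BMP targets Id1 and Id3 were at 0.25 and 0.47, and the inhibitor Fst was at -0.23. The atypical chemokine receptor Ackr2, which removes inflammatory chemokines, was at 1.38 and 1.70 and was the only one of 13 chemokine receptors past 2-fold. Ackr2 had a value on collagen replicate 2 only, at -2.99. Integrin Itgb8, which activates TGF-beta, was at 1.11 and 1.14, and at 0.9967 after adjustment, against -1.32 ± 0.15 for Itgb6, an epithelial integrin with the same ligand. A second probe of Itgb8 read -0.275 on replicate 1 only, so the probes of this gene disagreed in sign. Secreted regulators on the lower side were Fgf1 at -1.21 ± 0.047, Ccn2 at -1.18, Il6 at -1.05 and the urokinase gene Plau at -1.15. Ccn2 was at -0.98 after adjustment.

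Car8, a carbonic anhydrase-related protein without catalytic activity, was second highest, at 2.62 and 2.22 with PMB and at -0.40 with collagen. Other single genes of the highest 30 were the RNA gene 4930404H11Rik at 1.69 and 1.69, the peptidase inhibitor Pi16 at 1.28 and 1.63, Cmtm5 at 1.22 and 1.59, Wfdc21 at 1.12 and 1.57, the complement component gene Hc at 1.29 and 1.36, the glycosyltransferase Galnt15 at 1.27 and 1.33, the bile acid receptor Nr1h4 at 1.15 and 1.41, and Asphd2 at 0.93 and 1.59. Prdm8 was at 1.02 and 1.43, and at 0.85 after adjustment. In the RefSeq gene table Cmtm5 lies near Myh7 with 1 protein-coding gene between them, and Prdm8 lies near Bmp3 with 2 between them. Pi16, together with Sfrp4 at 1.07 and 1.01, belonged to the fibroblast list, in which 2 of 24 genes were higher, against 0.678% of all genes. The fibroblast median was 0.33 with PMB and -0.38 with collagen. The Schwann cell list had 1 higher of 12, the myelin gene Mal at 1.10 and 0.91, and a PMB median of 0.48 (0.31 on replicate 1 and 0.46 on replicate 2) and a collagen median of -0.69.

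None of 23 pan-macrophage genes reached 2-fold, and the median was -0.14 with PMB and -0.02 with collagen. On the single PMB arrays it was -0.16 on replicate 1 and -0.25 on replicate 2, and after adjustment for position it was -0.31. The scavenger receptor Marco was highest at 0.90, Adgre1, which encodes F4/80, was at -0.26, and Laptm5 was lowest at -0.68. Beside the counts that follow, 0.678% of all genes were higher and 1.52% lower. Of 27 M2-associated genes 1 was higher, Retnla, at 1.83 and 1.55 with PMB and -2.59 with collagen, while Arg1 was at 0.02, Mrc1 at -0.39 and Chil3 at 0.01. Retnla is also made in fat and airway tissue, and which cells gave its signal was not tested. Of 16 M1-associated genes 1 was higher, Cxcl9, and 1 lower, Il6, and Tnf was at 0.68 and Il1b at -0.26. Among 13 genes of giant cells and osteoclasts, the proton pump subunit Atp6v0d2 was lower, at -1.03, whereas the fusion genes Dcstamp and Ocstamp were at 0.05 and 0.14. Neutrophil genes gave 1 lower of 18, Retnlg at -1.29, with a PMB median of 0.03 (-0.0095 on replicate 1 and 0.08 on replicate 2) and a collagen median of 1.42.

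Vessel and matrix genes also stayed mostly within 2-fold. All 26 blood endothelial genes had a value and none reached 2-fold, with a PMB median of 0.22 and a collagen median of 0.70. The angiopoietin receptor Tek was at 0.73, Vwf at 0.67 and the tight junction gene Cldn5 at 0.51. Of 21 collagen genes, Col11a2 was at 0.65 and 1.41, and at 0.65 after adjustment, and Col11a1 and Col8a1 were lower at -1.60 and -1.45. The main fibrillar collagen Col1a1 was at 1.04 and 0.31. Cell cycle genes had a PMB median of -0.23 and a collagen median of 0.41, with none of 45 past 2-fold.

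**Figure D5:**
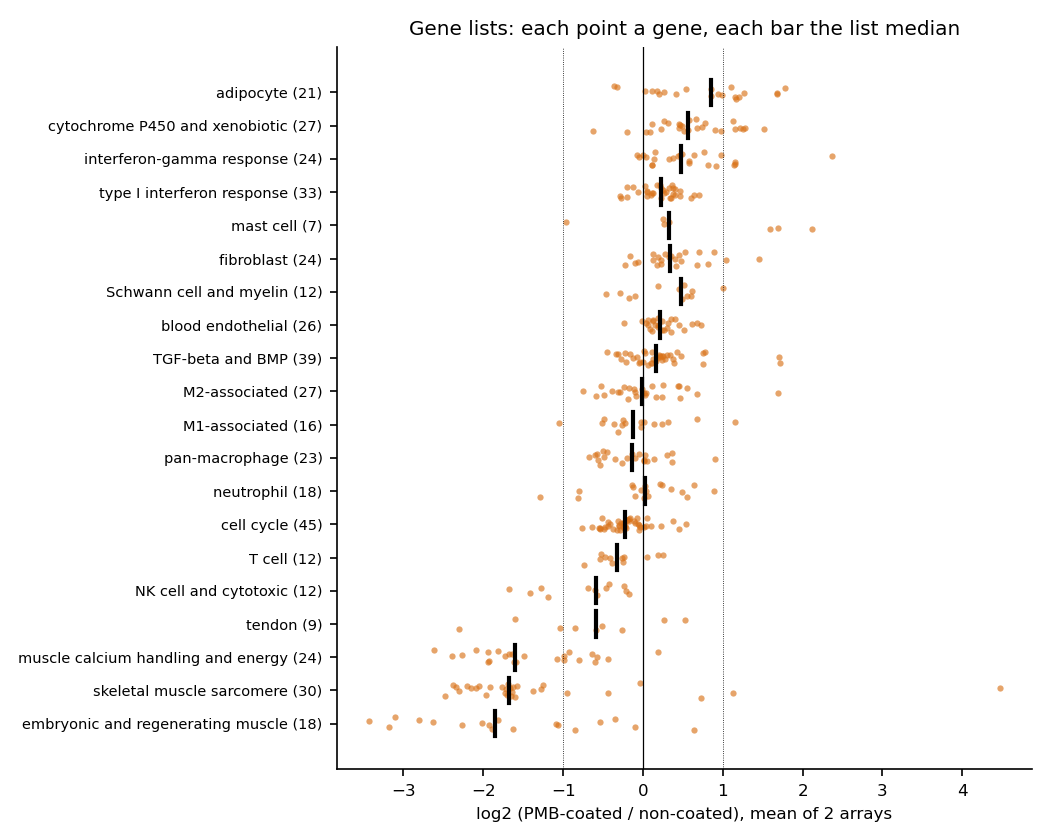
Mean log2 ratio of PMB-coated over non-coated tissue for the measured members of 20 gene lists (number of genes in brackets), with each point a gene, each bar the list median and dotted lines at 2-fold. The adipocyte median is 0.86 and the 3 muscle medians lie between -1.85 and -1.61, with Myh7 at 4.48 far to the right of the other sarcomere genes.

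The dye mattered most for a few genes that were not counted in either direction. Hsf2bp, a meiotic gene, was at 1.20 on replicate 1 and -2.12 on replicate 2, Dpf1 at 0.87 and -2.04, Syt16 at 1.08 and -1.82, and Prrg4 at 1.47 and -1.33, the same pattern as Myod1. All 5 were positive with the coated sample in Cy5 and negative with it in Cy3, on the collagen arrays too, where Hsf2bp was at 0.94 and -1.72.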

How the data were processed

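Per the labels and the study's methods, spots were read at 3 gain settings with GenePix software and both dyes were normalized by LOWESS, a smoothing of the ratio over intensity. The authors deposited log2 ratios of Cy5 over Cy3. The sources used here do not give how the gain scans were combined or why spots lack values. No column was left aside. The sign of replicate 2 was turned, probes with a value on both arrays were averaged, and the probes of each gene were then averaged. Of the probes, 33651 had 1 gene symbol in the platform annotation (updated through RefSeq GRCm38.p6 for 33515), 56 had several and 9670 had none. No test was made, and the number of arrays limits the precision.

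Genes named are the 30 of largest size per direction, the called members and up to 4 others of each list described, the 5 genes with the largest dye effect and, per direction, the 5 largest without values on all 4 arrays. Genes of families, of the 3 added lists and some single genes were named after their values were seen. The arrays and the 69 gene lists were chosen with earlier results of these data known. Alternatives left out an array, changed the limit, scaled or centred the arrays, changed the choice of probes, or adjusted for probe position by a surface of degree 3. The scripts were tested on simulated data. Python 3.11.15, pandas 2.3.3, numpy 2.4.6 and matplotlib 3.10.9 were used.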

Additional observations from a re-analysis of the deposited data

Results flagged for a closer look

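Among genes with values on both PMB and both collagen arrays, 16 were at least 2-fold in opposite directions with the 2 coatings. Of these, 13 were higher with PMB and lower with collagen, and 3 the other way. The difference was not tested, since each coating had 1 extract and both shared the non-coated extract. Of those higher with PMB, Cyp2e1 was at 1.51 with PMB and -2.79 with collagen, Reln at 1.02 and -2.71, Retnla at 1.69 and -2.59, Ces1d at 1.15 and -2.03, Prdm8 at 1.22 and -1.92, Pnpla3 at 1.01 and -1.66, and Bmp3 at 1.70 and -1.61. In the same order of coatings, Tnxb was at 1.01 and -1.47, Sfrp4 at 1.04 and -1.46, Itgb8 at 1.13 and -1.43, Ccdc3 at 1.01 and -1.22, Akr1c14 at 1.22 and -1.22 and Pck1 at 1.77 and -1.03. Lower with PMB and higher with collagen were Dio3 at -1.05 and 1.20, Klrg1, a receptor of NK and T cells, at -1.12 and 1.24, and the epithelial serpin Serpinb5 at -1.42 and 1.65. Reln, which nerve sheath and lymphatic vessel cells make, was read by 9 probes between 0.79 and 1.27 with PMB. After adjustment for probe position, Reln, Tnxb, Ccdc3, Prdm8, Pnpla3 and Itgb8 were at 0.97, 0.71, 0.83, 0.85, 0.72 and 0.9967 and so below 2-fold.

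Probes with a value on only 1 PMB array lay outside the comparison, 3609 on replicate 1 and 52 on replicate 2. At least 4-fold in size were a Myh7 probe at 4.65, the Myl2 probe at 4.13 and a Bmp7 probe at 2.33 on replicate 1, and on replicate 2 the probe of 4930503E24Rik at 2.74, an unnamed probe at -2.35, the histone probe H1f4 at -2.66 and the probe of Zbtb26 at -5.22. None of these has a second dye orientation, so a dye effect cannot be told apart from a difference between scaffolds.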

How the results depend on the processing

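With 1 array left out, the higher genes numbered 82 to 166, the higher probes 156 to 307 (133 with both arrays) and the lower probes 368 to 598 (343 with both), and the larger counts came from replicate 2 alone. These counts kept to the probes with a value on both PMB arrays. At 1.5-fold 535 genes were higher and 561 lower (1102 and 1358 probes), and at 3-fold 13 and 86 (18 and 139 probes). With 2-fold required on each array, 81 probes were higher. At 3-fold, the higher adipocyte, interferon-gamma and xenobiotic genes numbered 3, 1 and 0 and the lower NK genes 1, and at 1.5-fold the interferon-gamma and xenobiotic genes numbered 9 and 12. The other 122 counts recomputed stayed within 1.5 times, position adjustment included (64 higher and 181 lower genes). Of 141 genes followed, chosen as called genes and so of the same sign on both arrays, 127 kept their call after position adjustment. Probes with values on all 4 arrays left 127 of them, without Myh7. No paired analysis was possible because no test was made and the replicate numbers mark a dye swap of the same extracts. The number of arrays limits what can be seen.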

Other observations

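The prolactin-family genes Prl2c5 and Prl2c3, which are near-identical, were at -1.97 and -1.92 with PMB and at -0.40 and -0.37 with collagen. The eosinophil ribonuclease genes Ear10 and Ear3 were at -1.17 and -1.06 with PMB and at -1.95 and -2.04 with collagen.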
